A study of Homo sapiens with 15 samples.

Results

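The nuclear genes of the mitochondrial respiratory chain and of ATP synthase were examined in THP-1 cells, a human line from an acute monocytic leukaemia that is used as a model of monocytes. Members were all probe sets annotated to 1 nuclear gene whose symbol begins with NDUFA, NDUFB, NDUFC, NDUFS, NDUFV, UQCR, COX4, COX5, COX6, COX7, COX8 or ATP5, or to SDHA, SDHB, SDHC, SDHD or CYC1, without pseudogenes and matched by Entrez gene number. The rule found 172 probe sets of 89 genes, among 54613 non-control probe sets and 19777 genes with a probe set of their own. Of the 89 genes, 77 encode structural subunits, 8 are NDUFAF assembly factors of complex I, 1 is the ATP synthase inhibitor ATP5IF1, and 3 are noncoding genes that share a prefix (NDUFB2-AS1, NDUFV1-DT and NDUFV2-AS1). SDHB and UQCRFS1 are not analysed here, and 10 probe sets that name a subunit together with other genes were not used.

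The 15 arrays came from 5 groups of 3: infliximab for 6 h, infliximab for 24 h, CDP870 for 6 h, CDP870 for 24 h, and untreated control cells at 0 h. Both agents bind tumour necrosis factor: infliximab is a whole chimeric IgG1 antibody, whereas CDP870, now known as certolizumab pegol, is a Fab' fragment joined to polyethylene glycol and lacks the Fc part. The sources used here give no doses. No untreated cells were taken at 6 or 24 h, so agent and time in culture cannot be told apart in a comparison with 0 h. Arrays of one group are biological replicates by the design text; whether they came from separate cultures is not said, and p-values therefore reflect only how these samples vary, which may be technical.

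The respiratory chain passes electrons through the inner mitochondrial membrane. Complex I takes them from NADH and complex II from succinate, coenzyme Q carries them to complex III, cytochrome c carries them on to complex IV, and complex IV passes them to oxygen. Complexes I, III and IV pump protons, and ATP synthase (complex V) lets the protons flow back through its c ring while its F1 head makes ATP. Complex I has core subunits that carry the catalytic centres and many accessory subunits around them. In monocytes and macrophages the balance between this pathway and glycolysis is known to shift with activation.

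The promoters of ATP5MC1, NDUFA6 and NDUFB10 are printed here because these genes are followed in detail across the groups and their promoters differ in the motifs they hold. Each is the 250 bases before the gene start in the gene's orientation, from RefSeq on GRCh38.p14. Capitals mark CCAAT, the core of the NF-Y box, on either strand, and in NDUFA6 also the NRF1 match CGCACGCG. The ATP5MC1 promoter lies at chr17:48892537-48892786 on the + strand, that of NDUFA6 at chr22:42090773-42091022 on the - strand, and that of NDUFB10 at chr16:1959288-1959537 on the + strand.
ATP5MC1: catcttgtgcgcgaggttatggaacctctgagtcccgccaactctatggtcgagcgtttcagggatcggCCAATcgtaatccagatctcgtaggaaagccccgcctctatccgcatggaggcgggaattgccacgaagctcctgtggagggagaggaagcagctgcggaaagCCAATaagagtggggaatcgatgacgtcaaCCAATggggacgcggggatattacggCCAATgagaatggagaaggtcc
NDUFA6: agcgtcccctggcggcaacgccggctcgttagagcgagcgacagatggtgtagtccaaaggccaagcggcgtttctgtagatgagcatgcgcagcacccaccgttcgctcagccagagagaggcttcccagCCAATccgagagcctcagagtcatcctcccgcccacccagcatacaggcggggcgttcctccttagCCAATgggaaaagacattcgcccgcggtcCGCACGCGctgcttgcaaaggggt
NDUFB10: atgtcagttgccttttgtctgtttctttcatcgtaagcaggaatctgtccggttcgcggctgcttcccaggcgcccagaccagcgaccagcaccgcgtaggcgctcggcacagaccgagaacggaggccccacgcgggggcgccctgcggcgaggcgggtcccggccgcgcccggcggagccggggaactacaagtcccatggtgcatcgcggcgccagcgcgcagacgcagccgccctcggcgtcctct

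ATP5MC1 held 4 CCAAT motifs in these bases, NDUFA6 held 2 beside its NRF1 match, and NDUFB10 held none of the motifs searched. Motifs were searched on both strands in windows of 300 bases (250 before and 50 after the start), which RefSeq gave for 76 of the 89 members. NRF1 and GABP are transcription factors known to bind many genes of oxidative phosphorylation. The NRF1 motif CGCNTGCG was present in 36.9% of the 65 promoters of structural subunits, against 14.3% of 15843 promoters of protein-coding genes. The GABP and ETS motif CCGGAAG was present in 27.7%, against 14.2%, and the YY1 motif AAGATGGC in 15.4%, against 3.91%. CCAAT, which was added after the sequences had been seen, was present in 33.8% of the subunit promoters, against 36.4% of protein-coding promoters. A match is a description of the letters in the window and overlaps between motifs were allowed.

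A probe set was tested if it lay above its array's median on at least 3 of the 15 arrays. This kept 141 of the 172 member probe sets and 85 of the 89 genes, and for each gene the brightest of its tested probe sets, by mean over all arrays, stands for the gene. The 4 genes that did not reach the filter were COX6A2, COX7A1, COX7B2 and COX8C, isoforms of complex IV subunits known mainly from heart, skeletal muscle or testis. Of the 85 genes, 84 lay above the array median on all 15 arrays, the exception being NDUFV2-AS1. Of the 73 tested structural subunits, 70 (95.9%) lay above the upper quartile on every array, the exceptions being COX4I2, COX6B2 and ATP5MF. Values are log2 probe set summaries, and changes are compared between arrays within each probe set. Levels of different probe sets entered the filter, the choice of the brightest probe set, the counts above median and quartile, and the marker means.

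Some arrays stood apart. Control replicate 3 had the highest member values, with a median deviation over the 85 genes of 0.193 from the mean of the 15 arrays, against 0.06 and 0.004 for control replicates 2 and 4. The infliximab 24 h arrays differed more among themselves than other replicates did (root mean square deviation from the group mean 0.206 to 0.258, against 0.111 to 0.205 for all other arrays), and replicate 6 of that group had a larger difference between the 3' and 5' probe sets of GAPDH (0.24) and ACTB (0.27) than any other array. Mean spike-in levels were 7.75 ± 0.04 in infliximab 6 h, 7.51 ± 0.15 in infliximab 24 h, 7.5 ± 0.12 in CDP870 6 h, 7.6 ± 0.2 in CDP870 24 h and 7.38 ± 0.13 in control 0 h arrays (log2, SD, n = 3 each). Of 10 monocytic marker genes, 9 or 10 lay above the array median on every array, and their mean level was 6.18 to 6.30 in infliximab 6 h and 6.28 to 6.62 in infliximab 24 h, against 5.95 to 6.09 in CDP870 6 h, 5.96 to 5.98 in CDP870 24 h and 5.89 to 6.23 in control arrays. Of the 9 tested, 2 rose with infliximab at 6 h and 3 at 24 h against control 0 h. Of all tested probe sets, 4.02% were called higher at 6 h and 3.78% at 24 h. The mean level of 7 epithelial markers differed with infliximab, at 5.64 to 5.90 (log2) in infliximab 6 h and 5.74 to 5.81 in infliximab 24 h arrays, against 4.96 to 5.11 in CDP870 6 h, 5.01 to 5.1 in CDP870 24 h and 5.31 to 5.49 in control arrays. Of these 7 genes, 5 lay above the array median on every array. Of the 5 tested, 4 rose at 6 h and 5 at 24 h against control 0 h, beside the same 4.02% and 3.78%. Of tested lymphocyte, fibroblast and erythroid markers, 1 of 4, 0 of 3 and 0 of 2 were called with infliximab at 6 h, beside 8.42% of all tested probe sets. The part of the marker differences in the results on the respiratory chain was not tested.

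**Figure D1:**
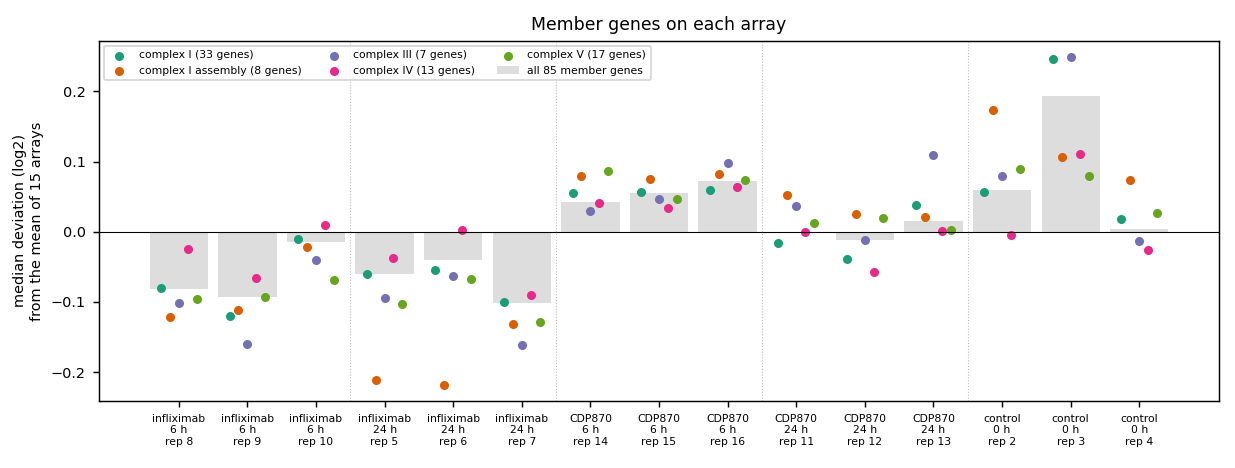
Median deviation of member genes from their mean over the 15 arrays (log2, vertical axis) on each array (horizontal axis), for all 85 genes (grey bars) and by complex (points; complex II with 3 genes is not drawn). All 6 infliximab arrays lie below 0, at -0.014 to -0.101 over all member genes, and control replicate 3 lies highest at 0.193. CDP870 24 h replicates 11 and 12 also lie below 0, at -0.000667 and -0.0113.

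With infliximab for 6 h, 12 of the 85 member genes fell and 1 rose against control 0 h (limma adjusted p under 0.05). Calls made up 15.3% of member genes, against 8.42% of all 28897 probe sets tested. That share includes NDUFV2-AS1, which passed the filter through infliximab arrays, where it was high. Among structural subunits alone, 11 of 73 were called (15.1%), all of them lower. Lower calls made up 14.1% of member genes, against 4.4% of all tested probe sets, of which 4.02% were called higher. The units differ here and below: members count the brightest probe set of each gene, the background counts every tested probe set, dim ones included. Over member probe sets, 16 of 141 were called lower. The median log2 change of member genes was -0.15, against -0.04 for all tested probe sets. Of the 85 estimates 71 were below 0, beside 56.7% of all tested probe sets. The changes were small: the largest decrease was 0.58 on the log2 scale, a fold of 0.671. In every called gene the values of the infliximab and control arrays did not overlap. The calls rest on these same values, so this adds no support, and it was not counted over all tested probe sets. Without control replicate 3 the count of called members was 2, and it was 2, 3 and 5 without infliximab 6 h replicates 8, 9 and 10, while the median stayed between -0.18 and -0.11 in these fits. With the spike-in level in the model, no member was called and the median was -0.15.

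With infliximab for 24 h, 13 member genes fell and none rose against control 0 h, 15.3% of member genes, against 6.57% of all tested probe sets, of which 3.78% were called higher and 2.79% lower. The median log2 change was -0.16, against -0.02 for all tested probe sets. Of 85 estimates 72 were below 0, beside 54.5% of all tested probe sets. Both times were set against the same 3 control arrays. The count was 4, 5, 7 and 5 without control replicate 2, control replicate 3, infliximab 24 h replicate 5 and infliximab 24 h replicate 6, and 1 without control replicate 3 and infliximab 24 h replicates 5 and 6 together. The median over the 85 genes was between -0.18 and -0.11 in these fits.

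**Figure D2:**
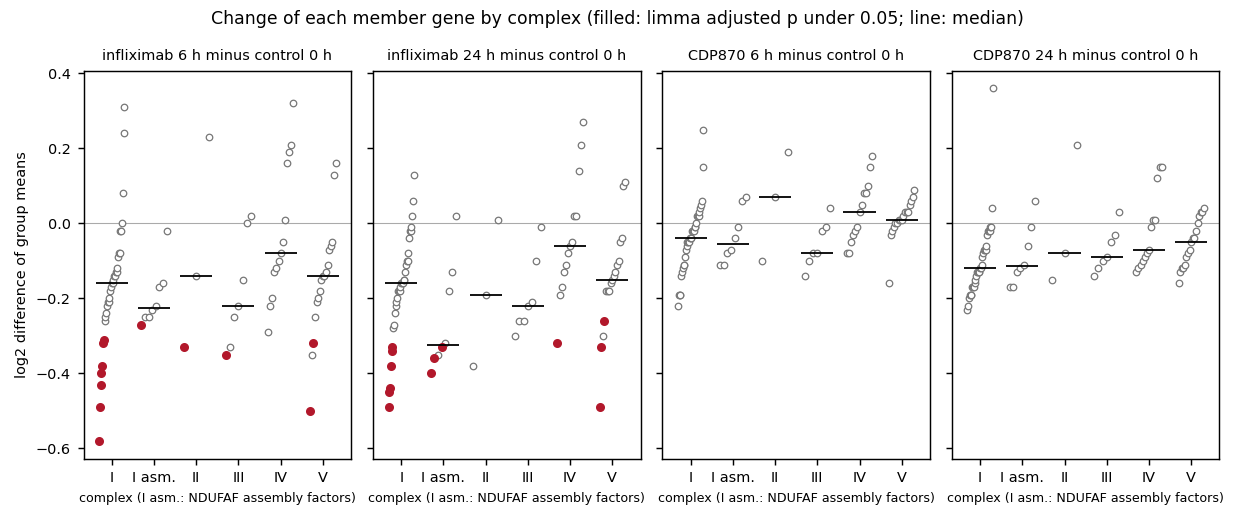
Difference in log2 between each agent and time and control 0 h (vertical axis) for every tested member gene, by complex (horizontal axis), with 1 point per gene, filled where the limma adjusted p was under 0.05, and a line at the median. The inhibitor and the noncoding genes are not drawn. Filled points appear with infliximab at 6 h and at 24 h, all below 0, and none with CDP870.

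With CDP870, no member gene was called against control 0 h at 6 h or at 24 h, and of all tested probe sets 0% were called at either time. At an unadjusted p under 0.05, 2 of the 85 genes passed at 6 h and 1 at 24 h, against 1352 and 1359 of the 28897 tested probe sets. Limma with array weights called no member gene at either time. The median log2 change was -0.01 at 6 h and -0.08 at 24 h, against -0.01 and -0.03 for all tested probe sets. Estimates below 0 numbered 47 of 85 at 6 h and 68 at 24 h, beside 51.5% and 59.3% of all tested probe sets. In complex I at 24 h, 31 of 33 estimates were below 0, with a median of -0.12. With infliximab at 24 h these values were 30 of 33 and -0.16. The lowest unadjusted p at 6 h belonged to NDUFV1, the flavoprotein of complex I that binds NADH, at -0.22 ± 0.09 (SE, adjusted p = 0.997), and at 24 h to NDUFA8, at -0.20 ± 0.09 (adjusted p = 0.974). NDUFA5, an accessory subunit of complex I, had the highest estimate at 24 h, 0.36 ± 0.18 (adjusted p = 0.974). The 95% interval of the difference lay inside 0.5 on the log2 scale either way for 83 of 85 genes at 6 h and for 82 at 24 h. Most decreases called with infliximab against control 0 h were smaller than this limit. The count therefore cannot show that changes of that size were absent with CDP870.

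Set directly against CDP870, infliximab gave 8 lower and no higher member genes at 6 h, 9.41% of 85, against 9.07% of all tested probe sets, of which 5.1% were called higher and 3.98% lower. At 24 h it gave 5 lower and none higher, 5.88%, against 6.51% of all tested probe sets, of which 4.73% were called higher and 1.79% lower. The share of members called in either direction was near that of all probe sets at both times. The median member change was -0.15 at 6 h and -0.07 at 24 h, against -0.03 and 0 for all tested probe sets. Leaving out any 1 array of the groups compared left 1 to 4 members called at 6 h and 0 to 4 at 24 h, the highest counts without infliximab 6 h replicate 10 and infliximab 24 h replicate 7. The 95% interval of the difference between the agents leaves out 0 where the unadjusted p is under 0.05. This held for 32 of 85 genes at 6 h and 19 at 24 h. It held for 7161 and 5732 of the 28897 tested probe sets. On rounded limits, the interval lay inside 0.5 either way for 73 and 79 member genes. Genes that were not called were not shown to be alike: the interval of COX4I1 was -0.26 to 0.09 at 6 h, and that of SDHA was -0.43 to -0.02.

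Complex V held the member with the lowest p when infliximab 6 h was set against control 0 h and against CDP870. ATP5MC1 encodes a copy of subunit c, the proton-carrying subunit of the c ring. Its probe set read 7.61, 7.45 and 7.67 (log2) on the infliximab 6 h arrays and 7.53, 7.67 and 7.54 on the infliximab 24 h arrays. On the CDP870 arrays it read 8.07, 8.12 and 8.20 at 6 h and 7.95, 7.86 and 8.04 at 24 h, against 8.07, 8.25 and 7.90 on the control arrays. Every infliximab array lay below every CDP870 and control array. It fell by 0.50 on the log2 scale at 6 h (SE 0.1, adjusted p = 0.00888, fold 0.709) and fell by 0.49 at 24 h (adjusted p = 0.0103) against control 0 h. Against CDP870 it fell by 0.55 at 6 h (95% interval -0.77 to -0.34, adjusted p = 0.00424) and fell by 0.37 at 24 h (interval -0.59 to -0.15, adjusted p = 0.0434). The call against CDP870 at 6 h was kept in 16 of 16 other settings, with an adjusted p of at most 0.0442, and that against control 0 h at 6 h was lost in 1 of 16, the fit with the spike-in level (adjusted p = 0.202). The call against control 0 h at 24 h was lost in 2 of 16, and that against CDP870 at 24 h in 12 of 16 (adjusted p up to 0.157).

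The other copies of subunit c, which encode the same mature protein, gave different values. ATP5MC3 read 10.20, 10.23 and 10.27 on the infliximab 24 h arrays, against 10.51, 10.51 and 10.51 on the CDP870 24 h arrays and 10.50, 10.50 and 10.47 on the control arrays, with no overlap. It fell by 0.26 against control 0 h (SE 0.07, adjusted p = 0.0472) and fell by 0.28 against CDP870 at 24 h (adjusted p = 0.0333). At 6 h it was -0.21 against control 0 h (adjusted p = 0.0845). Of its 3 probe sets, 2 were called lower at 24 h and the third was at 0.09. ATP5MC2 read 10.29, 10.26 and 10.20 in infliximab 6 h, 10.21, 10.19 and 10.25 in infliximab 24 h and 10.15, 10.15 and 10.05 in control cells, a difference of 0.13 at 6 h and 0.10 at 24 h (adjusted p = 0.306 and 0.484).

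In the F1 head, ATP5F1C, the rotating gamma subunit, fell by 0.33 with infliximab at 24 h against control 0 h (SE 0.08, adjusted p = 0.0252) and fell by 0.32 against CDP870 at 6 h (adjusted p = 0.024). Its values were 9.52, 9.57 and 9.61 in infliximab 6 h and 9.48, 9.49 and 9.49 in infliximab 24 h, against 9.87, 9.89 and 9.91 in CDP870 6 h, 9.63, 9.66 and 9.81 in CDP870 24 h and 9.93, 9.79 and 9.74 in control cells. Infliximab values at both times lay below all others. The 4 tested probe sets of ATP5F1C ran from -0.33 to -0.27 at 24 h against control 0 h, with 2 called. Against CDP870 at 6 h they ran from -0.32 to -0.12, also with 2 called. Of 17 other settings, 9 and 10 lost the call on ATP5F1C in these comparisons. Its brightest probe set was not called at 6 h against control 0 h or at 24 h against CDP870. The catalytic subunits ATP5F1A and ATP5F1B were at -0.11 and -0.14 with infliximab at 6 h and at -0.13 and -0.11 at 24 h, none called. ATP5MK, a small membrane subunit known for its role in joining ATP synthase into dimers, fell by 0.32 at 6 h against control 0 h (adjusted p = 0.0346) and fell by 0.31 against CDP870 (adjusted p = 0.0381), and was at -0.30 at 24 h against control 0 h (adjusted p = 0.0586). The 4 peripheral stalk subunits ran from -0.15 to -0.05 at 6 h and from -0.18 to -0.04 at 24 h with no call. ATP5IF1, which inhibits the enzyme when the proton gradient collapses, was at -0.07 and 0 with infliximab at 6 and 24 h (adjusted p = 0.701 and 0.992). In all, 2 of 17 complex V genes fell at 6 h and 3 of 17 at 24 h against control 0 h, beside the 4.4% and 2.79% of all tested probe sets called lower.

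**Figure D3:**
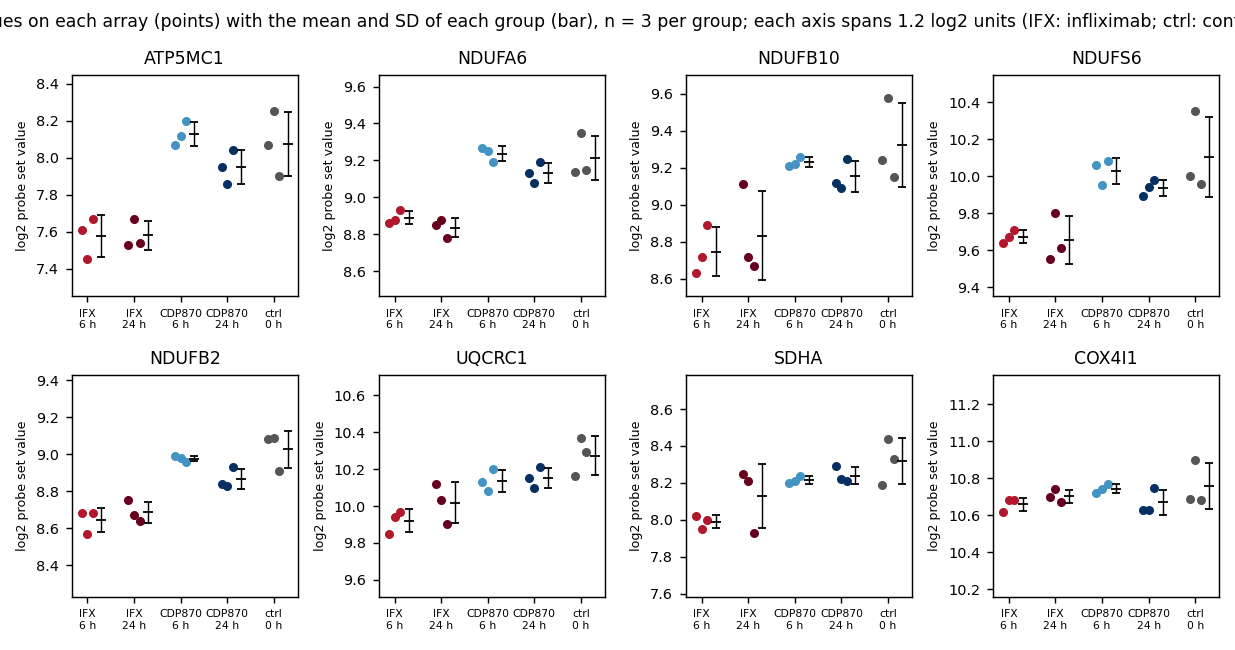
Values (log2, vertical axis) on each of the 15 arrays for 8 member genes, in infliximab 6 h, infliximab 24 h, CDP870 6 h, CDP870 24 h and control 0 h arrays from left to right, with the mean and SD of each group (n = 3). In ATP5MC1, NDUFA6, NDUFS6 and NDUFB2 all 6 infliximab points lie below all other points, and in COX4I1 the infliximab 24 h, CDP870 24 h and control 0 h points overlap.

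In complex I, 7 of 33 tested subunits fell with infliximab at 6 h and 6 of 33 at 24 h against control 0 h, where 4.4% and 2.79% of all tested probe sets were called lower. All of these were accessory subunits: 7 of 28 accessory and 0 of 5 core subunits at 6 h, and 6 of 28 and 0 of 5 at 24 h, with 1 core subunit at an unadjusted p under 0.05 at each time. The difference between these classes was not tested. Core subunits had estimates of -0.26 to -0.08 at 6 h and -0.28 to -0.10 at 24 h, with a median of -0.14 and -0.16, against -0.18 and -0.17 for accessory subunits. NDUFS3, a core subunit of the matrix arm, was lowest of the core at both times (adjusted p = 0.11 and 0.0942). NDUFV1 and NDUFS1, which carry electrons from NADH through flavin and iron-sulfur clusters, were at -0.16 and -0.08 at 6 h (adjusted p = 0.322 and 0.652).

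NDUFB10, an accessory subunit of the membrane arm, had the largest decrease among the called members. It read 8.63, 8.72 and 8.89 in infliximab 6 h and 9.11, 8.72 and 8.67 in infliximab 24 h cells, against 9.21, 9.22 and 9.26 in CDP870 6 h, 9.12, 9.09 and 9.25 in CDP870 24 h and 9.24, 9.58 and 9.15 in control cells. Infliximab 6 h values lay below all CDP870 and control values, while replicate 5 of infliximab 24 h lay among the CDP870 24 h values. It fell by 0.58 at 6 h (SE 0.13, adjusted p = 0.0151) and fell by 0.49 at 24 h (adjusted p = 0.0378) against control 0 h, and fell by 0.48 against CDP870 at 6 h (adjusted p = 0.0328). Its second probe set fell by 0.50 against control 0 h (adjusted p = 0.0444) and fell by 0.51 against CDP870 (adjusted p = 0.0402) at 6 h. Without control replicate 3, which was its highest array, the adjusted p was 0.0602 at 6 h and 0.125 at 24 h.

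NDUFA6, an accessory subunit that binds the mitochondrial acyl carrier protein, read 8.86, 8.88 and 8.93 in infliximab 6 h and 8.85, 8.88 and 8.78 in infliximab 24 h cells. It read 9.27, 9.25 and 9.19 in CDP870 6 h and 9.13, 9.08 and 9.19 in CDP870 24 h cells, against 9.14, 9.35 and 9.15 in control cells. The 6 infliximab values lay below the other 9. Against control 0 h it fell by 0.32 at 6 h (SE 0.08, adjusted p = 0.0263) and fell by 0.38 at 24 h (adjusted p = 0.0139), and against CDP870 it fell by 0.35 at 6 h (adjusted p = 0.0178) and fell by 0.30 at 24 h (adjusted p = 0.0453). Of 17 other settings, 8 and 13 kept the calls against control 0 h at 6 h and 24 h, and 11 and 3 kept those against CDP870. Its second probe set was at -0.23 and -0.28 against control 0 h (adjusted p = 0.106 and 0.0537) and at -0.25 and -0.19 against CDP870 (adjusted p = 0.0719 and 0.218), none called. Its promoter is the one printed above with 2 CCAAT motifs and the NRF1 match. NDUFAB1, that acyl carrier protein, fell by 0.31 at 6 h (adjusted p = 0.0421) and was at -0.24 at 24 h (adjusted p = 0.123).

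NDUFS6, a zinc-binding accessory subunit of the matrix arm, read 9.64, 9.67 and 9.71 in infliximab 6 h and 9.55, 9.80 and 9.61 in infliximab 24 h cells, against 10.06, 9.95 and 10.08 in CDP870 6 h, 9.89, 9.94 and 9.98 in CDP870 24 h and 10, 10.35 and 9.96 in control cells. No infliximab value reached the lowest of the others. It fell by 0.43 at 6 h (adjusted p = 0.0223) and fell by 0.45 at 24 h (adjusted p = 0.0208) against control 0 h, and fell by 0.36 against CDP870 at 6 h (adjusted p = 0.0494). NDUFB2 in the membrane arm fell by 0.38 at 6 h (adjusted p = 0.0107) and fell by 0.34 at 24 h (adjusted p = 0.0225), and fell by 0.33 against CDP870 at 6 h (adjusted p = 0.0201), on the brighter of its 2 probe sets. The other was at -0.14 and -0.08 against control 0 h. NDUFA8 fell by 0.40 and NDUFB7, which like NDUFA8 and NDUFB10 belongs to the accessory subunits facing the intermembrane space, fell by 0.49 at 6 h (adjusted p = 0.0149 and 0.0267), and at 24 h they fell by 0.33 and by 0.44 (adjusted p = 0.039 and 0.049). A second NDUFB7 probe set, near the array medians, was at -0.13 at 6 h and at 0.23 at 24 h. Some subunits had estimates above 0 without a call, with NDUFB5 at 0.24 (adjusted p = 0.065) and NDUFA5 at 0.31 (adjusted p = 0.323) at 6 h.

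The NDUFAF proteins assemble complex I and are not part of the finished enzyme. With infliximab 1 of 8 fell at 6 h and 3 of 8 at 24 h against control 0 h, with medians of -0.23 and -0.32. Of all tested probe sets, 4.4% were called lower at 6 h and 2.79% at 24 h. NDUFAF6, an assembly factor of the early matrix-side intermediates, read 6.38, 6.36 and 6.48 in infliximab 6 h and 6.30, 6.30 and 6.36 in infliximab 24 h cells, against 6.53, 6.61 and 6.56 in CDP870 6 h, 6.66, 6.57 and 6.62 in CDP870 24 h and 6.69, 6.66 and 6.69 in control cells. Both infliximab groups lay below all others. It fell by 0.27 at 6 h (adjusted p = 0.036) and fell by 0.36 at 24 h (adjusted p = 0.0104) against control 0 h, and fell by 0.30 against CDP870 at 24 h (adjusted p = 0.0282), whereas its second probe set, near the array medians, was at 0.04 and 0. NDUFAF2, a late-acting assembly factor, fell by 0.40 at 24 h (adjusted p = 0.0132), and NDUFAF5, which modifies a core subunit during assembly, fell by 0.33 (adjusted p = 0.0251). NDUFAF4 was at -0.35 at 24 h against control 0 h (adjusted p = 0.0698) and fell by 0.41 against CDP870 (adjusted p = 0.0347), with its second probe set at 0.01.

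Complex II, which also works in the tricarboxylic acid cycle, was covered by SDHA, SDHC and SDHD. SDHA, the flavoprotein that oxidises succinate, read 8.02, 7.95 and 8 in infliximab 6 h and 8.25, 8.21 and 7.93 in infliximab 24 h cells, against 8.20, 8.21 and 8.24 in CDP870 6 h, 8.29, 8.22 and 8.21 in CDP870 24 h and 8.19, 8.44 and 8.33 in control cells. The infliximab 6 h values lay below all CDP870 and control values, and those at 24 h overlapped them. SDHA fell by 0.33 at 6 h against control 0 h (SE 0.1, adjusted p = 0.0478), and the adjusted p was 0.151 without control replicate 3. At 24 h it was at -0.19 (adjusted p = 0.283). SDHD, a membrane anchor subunit, was at 0.23 and 0.01 (adjusted p = 0.241 and 0.973). The 6 tested probe sets of SDHC, the other membrane anchor, ran from -0.71 to 0.30 at 24 h with 1 called lower, and the probe set with the highest mean was at -0.38 (adjusted p = 0.091).

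In complex III, 1 of 7 genes fell at 6 h and none at 24 h with infliximab against control 0 h. Of all tested probe sets, 4.4% and 2.79% were called lower. An unadjusted p under 0.05 was found for 4 genes at each time. The same held for 6817 of the 28897 tested probe sets at 6 h and 5996 at 24 h. UQCRC1, a large matrix-facing core protein of the complex, read 9.85, 9.94 and 9.97 in infliximab 6 h cells, against 10.13, 10.08 and 10.20 in CDP870 6 h and 10.16, 10.37 and 10.29 in control cells, without overlap. It fell by 0.35 against control 0 h (SE 0.09, adjusted p = 0.0242) and was at -0.22 against CDP870 (adjusted p = 0.145). At 24 h it read 10.12, 10.03 and 9.90 with infliximab, a difference of -0.26 (adjusted p = 0.105). UQCRC2, the partner core protein, was at 0.02 and -0.01 at 6 and 24 h. CYC1, the cytochrome c1 that hands electrons to cytochrome c, was at -0.33 and -0.30 (adjusted p = 0.0863 and 0.132), with control replicate 3 at 9.35 and the other control arrays at 8.99 and 8.86. UQCR11 was at -0.15 and -0.21 on its brightest probe set, while its second fell by 0.51 (adjusted p = 0.0194) and fell by 0.48 (adjusted p = 0.0298).

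Complex IV had the smallest median shift of the complexes with infliximab, -0.08 at 6 h and -0.06 at 24 h against control 0 h, with 0 of 13 genes called at 6 h (5 at an unadjusted p under 0.05) and 1 of 13 at 24 h. Of all 28897 tested probe sets, 8.42% were called at 6 h and 6.57% at 24 h, and 6817 had an unadjusted p under 0.05 at 6 h. COX4I1, the main form of the regulatory subunit IV, read 10.62, 10.68 and 10.68 in infliximab 6 h and 10.70, 10.74 and 10.67 in infliximab 24 h cells, against 10.72, 10.74 and 10.77 in CDP870 6 h, 10.63, 10.63 and 10.75 in CDP870 24 h and 10.69, 10.90 and 10.68 in control cells. The groups overlapped at 24 h, and the differences from control 0 h were -0.10 and -0.05 (adjusted p = 0.524 and 0.767). COX4I2, the isoform known from lung and from low oxygen, was at 0.21 and 0.02 (adjusted p = 0.294 and 0.935). The small subunit COX7B fell by 0.32 at 24 h (adjusted p = 0.0446) with values of 9.56, 9.67 and 9.56 in infliximab 24 h, against 10.01, 9.99 and 9.76 in control cells, but its second probe set was at 0.32 and the mean over both was 0. COX6B1, which faces the intermembrane space, fell by 0.30 against CDP870 at 6 h (adjusted p = 0.0363). COX7A2L, known for joining complexes III and IV into supercomplexes, had the highest estimate of complex IV at 6 h, 0.32 (adjusted p = 0.059), and read 8.58, 8.58 and 8.59 in infliximab 6 h, against 8.39, 8.09 and 8.30 in control cells. These groups did not overlap, and the gene was not called.

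NDUFA4 and NDUFA4L2 are now named COXFA4 and COXFA4L2 and fall outside the rule; they belong beside complex IV and were looked up. COXFA4L2, the form known to be induced by low oxygen through HIF, read 4.17, 4.07 and 4.05 in infliximab 6 h and 4.24, 3.64 and 3.83 in infliximab 24 h, against 3.41, 3.13 and 3.44 in CDP870 6 h, 3.30, 3.08 and 3.32 in CDP870 24 h and 3.05, 3.72 and 3.68 in control cells. It rose by 0.61 at 6 h against control 0 h (adjusted p = 0.0443) and was at 0.42 at 24 h (adjusted p = 0.187), where the values overlapped. Against CDP870 it rose by 0.77 at 6 h (adjusted p = 0.0143) and by 0.67 at 24 h (adjusted p = 0.0346). COXFA4 was at -0.09 at 6 h against control 0 h.

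The single higher call among the members was NDUFV2-AS1, an RNA antisense to the NDUFV2 locus, at 0.51 with infliximab at 6 h (adjusted p = 0.043). It read 3.10, 2.76 and 3.15 in infliximab 6 h, 2.96, 2.98 and 2.79 in infliximab 24 h and 2.53, 2.53 and 2.43 in control cells. With array medians of 2.93 to 3.07 it lay near the median and passed the filter through infliximab arrays, where it was high, so the call is given as a value and supports nothing. NDUFV2 itself was at -0.08 (adjusted p = 0.64).

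Between the times of one agent no member was called, with 0% of all tested probe sets called for infliximab, for CDP870 and for the interaction of agent and time. The median member change at 24 h against 6 h was -0.01 with infliximab and -0.05 with CDP870. An unadjusted p under 0.05 was passed by 0 and 3 members, against 3437 and 1437 of the 28897 tested probe sets. For infliximab NDUFAF2 was at -0.18 (adjusted p = 0.441) and SDHD at -0.22 (adjusted p = 0.462), and in both the 24 h values lay below the 6 h values. For CDP870 COX6B1 was at -0.22 and NDUFV1-DT at -0.37 (adjusted p = 0.996 each). The interaction gave 0 members at an unadjusted p under 0.05, against 2642 of all tested probe sets, with COX6B1 at 0.24 ± 0.12 (SE, adjusted p = 0.56). Limma with array weights called none in these 3 comparisons.

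Probe sets of one gene did not always move together. Of the 85 genes, 36 had several tested probe sets. ATP5MG, a membrane subunit of ATP synthase, had 4, of which 1 was called higher with infliximab at 6 h at 0.42 while the others were at -0.18 to -0.12. Over probe sets in place of genes, 16 of 141 were called lower and 2 higher at 6 h, and 17 lower and 0 higher at 24 h, with medians of -0.14 and -0.16.

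**Figure D4:**
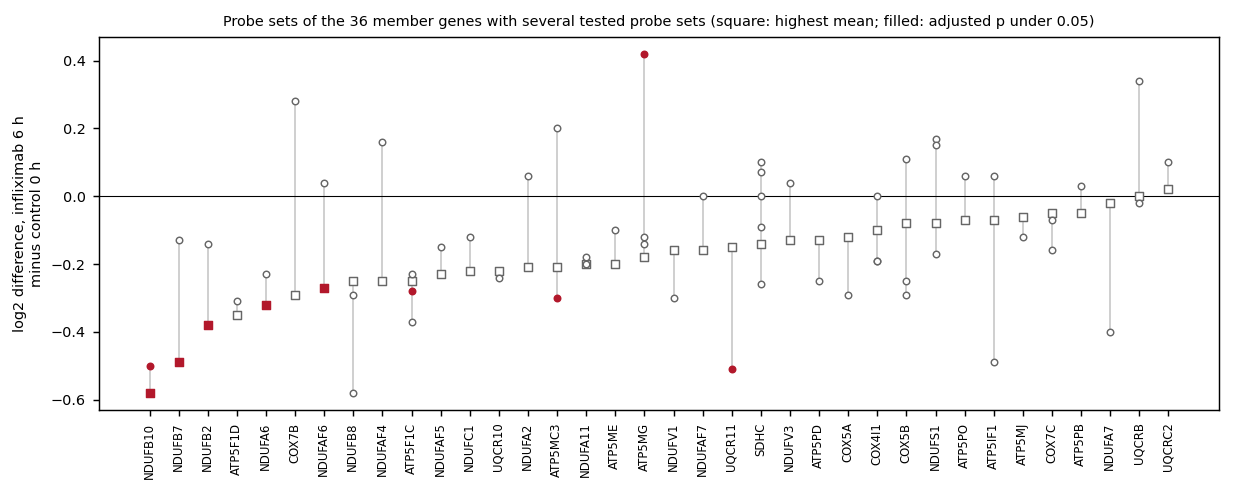
Difference in log2 between infliximab 6 h and control 0 h (vertical axis) for every probe set of the 36 member genes with several tested probe sets (horizontal axis), with a square for the probe set with the highest mean and filled symbols where the limma adjusted p was under 0.05. Both probe sets of NDUFB10 are filled at -0.58 and -0.50, and 1 ATP5MG probe set is filled above 0 at 0.42.

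The rest of the pathway was described from lists, whose counts stand beside 4.02% of all tested probe sets called higher and 4.4% called lower with infliximab at 6 h, and 3.78% and 2.79% at 24 h. Of the 13 subunits encoded in mitochondrial DNA, 7 had a tested probe set, and 1 rose with infliximab at each time while none fell. This was COX1, the catalytic subunit of complex IV, which read 10.90, 10.56 and 10.77 in infliximab 6 h and 10.77, 10.70 and 10.78 in infliximab 24 h, against 10.24, 10.20 and 10.40 in control cells, a rise of 0.46 (adjusted p = 0.0111) and of 0.47 (adjusted p = 0.0114). CDP870 arrays read 10.83, 10.87 and 10.69 for COX1 at 24 h, a difference of 0.52 from control 0 h (adjusted p = 0.969), and infliximab differed from CDP870 by 0.16 at 6 h and -0.05 at 24 h (adjusted p = 0.351 and 0.851). The median of the 7 genes was 0.13 at 6 h and 0.08 at 24 h with infliximab.

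Of 41 tested assembly factors outside the member rule, 6 fell and 1 rose at 6 h, and 6 fell and 3 rose at 24 h, with medians of -0.10 and -0.08. Of all tested probe sets, 8.42% were called in either direction at 6 h and 6.57% at 24 h. SCO2, a copper chaperone of complex IV, fell by 0.53 (adjusted p = 0.0114) and fell by 0.47 (adjusted p = 0.024), and BCS1L, which inserts the Rieske protein into complex III, fell by 0.36 and by 0.38 (adjusted p = 0.0178 and 0.0159). TTC19, also of complex III, rose by 0.50 and by 0.55 (adjusted p = 0.0218 and 0.0154). SURF1 and COX15, of complex IV assembly and heme A synthesis, each rose by 0.43 at 24 h (adjusted p = 0.0303 and 0.0402).

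Of 18 genes of cytochrome c, electron transfer flavoprotein and coenzyme Q synthesis, 2 fell and 1 rose at 6 h and 2 fell at 24 h, again beside 8.42% and 6.57% of all tested probe sets called. HCCS, which attaches heme to cytochromes c and c1, fell by 0.33 and by 0.43 (adjusted p = 0.0267 and 0.00779). Of 23 genes of the tricarboxylic acid cycle and pyruvate entry, 2 fell and 1 rose at each time. PDHA1, a subunit of pyruvate dehydrogenase, fell by 0.38 at both times (adjusted p = 0.0114 and 0.0134), and PDK1, the kinase that inactivates that enzyme, rose by 0.84 and by 0.95 (adjusted p = 0.014 and 0.00769). IDH3B, of the NAD-dependent isocitrate dehydrogenase, fell by 0.43 and by 0.38.

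Among 18 regulators of mitochondrial biogenesis, 2 fell at 6 h and none was called at 24 h, beside 4.4% and 2.79% of all tested probe sets called lower. PPRC1, a coactivator related to PGC-1, read 4.84, 4.52 and 4.78 in infliximab 6 h, against 5.45, 5.77 and 5.36 in control cells, and fell by 0.81 (adjusted p = 0.0155). TWNK, the helicase that unwinds mitochondrial DNA, fell by 0.57 (adjusted p = 0.0114). NRF1 was at -0.15 and 0.11, and GABPA at -0.08 and -0.12, none called. Of 10 inner membrane carriers, SLC25A10, the dicarboxylate carrier, fell by 0.61 at 6 h (adjusted p = 0.0218) and no gene was called at 24 h. None of these 6 lists held a call with CDP870 against control 0 h, where 0% of all tested probe sets were called. In a bulk sample, fewer cells of a type and less RNA per cell cannot be told apart for any of these genes.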

How the data were processed

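RNA of 15 THP-1 samples was measured on Affymetrix arrays. The authors deposited log2 probe set summaries; the submitters' processing notes name GCOS 1.3.0 and GCRMA with no role or order, and the normalization between arrays is not given in the sources used here. All values lay between 0.17 and 11.94. The sorted values of any 2 arrays were within 0.19 of each other, so these data cannot show a shift common to most transcripts. The 15 value columns matched samples by title (0 unmapped).

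Symbols were updated through Entrez numbers to RefSeq GRCh38.p14. Group means were estimated jointly from the 15 arrays by limma (version 3.58.1, R version 4.3.3; lmFit, contrasts.fit and eBayes), over the 28897 probe sets above the array median on at least 3 arrays. P-values of 9 comparisons were two-sided and adjusted by Benjamini-Hochberg within each, with 0.05 as threshold, and errors of changes are model standard errors. The fit was tested on simulated data. The members and lists were chosen with earlier results of these data known. Named genes are up to 12 calls per direction and comparison by smallest p, 2 as values where none passed, and a fixed list of subunits. Other settings were tried (normalization, filter, probe set choice, groups fitted, array weights, spike-in level, arrays left out). Figures used matplotlib 3.10.9 in Python 3.11.15.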

Additional observations from a re-analysis of the deposited data

How the results depend on the processing

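Medians of member changes kept their direction in the comparisons of infliximab with control 0 h and with CDP870 under all settings run. Counts of called members moved. They are given here for infliximab against control 0 h and then infliximab against CDP870, each at 6 h and 24 h. The main counts were 13 (NDUFV2-AS1 included), 13, 8 and 5. They were 3, 0, 17 and 0 with only the groups compared, 20, 4, 27 and 2 with array weights, 0, 6, 1 and 2 with the spike-in level as a covariate, 6, 5, 4 and 0 with no filter on low values, 10, 8, 5 and 4 with median centring, 10, 6, 4 and 2 with no _s_at or _x_at probe sets, 15, 9, 8 and 1 with the mean over the probe sets of each gene, 13, 13, 8 and 3 with quantile normalization again, 11, 10, 8 and 3 with structural subunits only, and 8, 1, 19 and 1 without control replicate 3 and infliximab 24 h replicates 5 and 6. Leaving out 1 array gave 2 to 9, 4 to 13, 1 to 4 and 0 to 4, and 0 to 1 for infliximab at 24 h against 6 h (1 without infliximab 24 h replicate 7). The cause was not tested. Of 38 named calls, 29 were lost with the spike-in covariate and 27 with only the groups compared, and none changed sign under any setting. Among genes given as values, NDUFS1 in CDP870 at 24 h against 6 h turned to -0.01 with gene means and -0.24 with no _s_at or _x_at probe sets, and ATP5F1D and SDHA in infliximab at 24 h against 6 h turned to -0.04 and -0.06 without the 3 arrays. No paired analysis was possible because the replicate numbers do not repeat between groups. The number of arrays limits the precision.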
